A study of Mus musculus with 12 samples.

Results

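Glutamate and GABA receptor subunits were examined in RNA from the striatum of 12 mice, on arrays with 1 mouse each. The genes were chosen by symbol, as the ionotropic glutamate receptor subunits, the metabotropic glutamate receptors, the kainate receptor partners Neto1 and Neto2, the GABA-A and GABA-B receptor subunits, and 1 receptor-binding protein (Grid2ip) whose symbol fits the same pattern. They came to 40 of the 19057 genes with a probe annotated to a single symbol, and 85 of its 45281 probes. Of the genes, 24 belong to the glutamate side (56 probes) and 16 to the GABA side (29 probes). Subunits to which no probe was annotated in the table used were not analysed here.

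All 12 mice were BACHD mice, males 5 months old that carry a transgene for full-length human mutant huntingtin, so the controls share that allele with the treated mice. Each received a single injection into the striatum, of PBS in 4 mice, of an antisense oligonucleotide (ASO) against wig-1 mRNA in 4 mice, or of a negative control ASO of the same chemistry in 4 mice. The wig-1 ASO directs RNase H to the mRNA of Zmat3, the mouse gene for the zinc finger protein wig-1. The labels call the tissue brain and the methods call it striatum. No mouse without the transgene is among these arrays, so every level below is one in a Huntington's disease model.

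Glutamate is the main excitatory transmitter of the brain and GABA the main inhibitory one. AMPA, kainate and NMDA receptors are glutamate-gated ion channels built of several subunits, with AMPA receptors carrying most of the fast current and NMDA receptors admitting calcium, while metabotropic glutamate receptors signal through G proteins. GABA-A receptors are chloride channels built of several subunits, and GABA-B receptors act through G proteins. Most striatal neurons are medium spiny neurons, which themselves release GABA and which receive glutamate from cortex and thalamus, so they carry receptors of both kinds.

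Well measured probes were those with a detection p-value below 0.01 on 4 or more of the 12 arrays. That held for 42 of the 85 receptor probes, 33 for glutamate and 9 for GABA, which cover 17 glutamate genes and 7 GABA genes. Of these 42 probes, 37 were detected on all 12 arrays. The filter left out 43 receptor probes, 35 of which were detected on no array. The 16 genes with no well measured probe were Gabbr2, Gabra4, Gabra5, Gabra6, Gabrp, Gabrq, Gabrr1, Gabrr2, Gabrr3, Grid2ip, Grik3, Grin2a, Grin2d, Grin3b, Grm3 and Grm6. Their probes were each detected on 0 or 1 of the 12 arrays, and nothing can be said about a change in them. Among them are subunits that medium spiny neurons are known to use, such as Gabra4, so the arrays see only a part of either receptor family.

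Values below are log2 of the deposited signal, always in the order of replicates 1 to 4. A gene with several well measured probes is represented by its brightest. A change is the difference of group means from limma across all 12 arrays, and a probe is said to have fallen or risen only where its p, adjusted by Benjamini-Hochberg over all 17188 well measured probes, was under 0.05. The 12 arrays hold the same set of signal values, from 2 to 14145, after the authors' normalization. Between 15228 and 17198 probes were detected per array, fewest with wig-1 ASO in replicate 1. Zmat3 (probe ILMN_2418426) was at 6.89, 6.63, 6.77 and 5.95 with wig-1 ASO, below every PBS mouse (8.37 to 8.60) and every control ASO mouse (8.31 to 8.53), in keeping with the treatment each label gives.

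Of the 17 glutamate receptor genes, 15 had lower means with wig-1 ASO than with PBS, and so had all 7 GABA receptor genes, with median log2 changes of −0.38 and −0.16. Of the 42 receptor probes, 4 fell with wig-1 ASO relative to PBS and 0 rose, where 1.06% of all well measured probes fell and 2.29% rose. The 4 belong to Gria1 (2 probes), Grm7 and Neto2, all on the glutamate side, and 0 of the 9 GABA probes passed the test. At an unadjusted p under 0.05, 19 of the 33 glutamate probes and 2 of the 9 GABA probes were lower and 0 were higher, where 8.98% of all probes were lower and 8.99% higher. The 19 include Grm7 probe ILMN_2684189, detected in 3 PBS, 1 wig-1 ASO and 0 control ASO mice, which passed the filter mostly through PBS. They also include Gria4 probe ILMN_2663423, detected in 4 PBS, 1 wig-1 ASO and 3 control ASO mice. The 4 wig-1 ASO mice lay entirely below the 4 PBS mice for 8 glutamate probes and 0 GABA probes, against 4.51% of all probes. Some of these probes share a gene, and by each gene's brightest probe this held for 3 of 17 glutamate genes, against 4.50% of all genes. The p-values measure the spread between mice, and the number of arrays, 4 per group, limits their precision. All 4 calls were lost with only the 8 arrays of both groups, with no detection filter and at the study's limits, where 120, 257 and 417 of all probes were called in place of 577. The SAM test, at a false discovery rate of 0.1, called 2 receptor probes, 1 of them among the 4, where 600 of all probes were called. Without wig-1 ASO replicate 1, which also had the fewest detected probes, 10 receptor probes were called lower, Gabrd, Grik2, Grin2b and a Gria3 probe among them, and 1234 of all probes were called. Leaving out any other single mouse gave 0 to 2 receptor calls, with 156 to 465 of all probes called. In such tissue, fewer cells of a type and less RNA per cell cannot be told apart.

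Relative to control ASO, the same wig-1 ASO arrays gave 0 called receptor probes by limma, where 0.943% of all probes were called, with 0.308% of all probes lower. The SAM test, at a false discovery rate of 0.1, also gave 0, where 72 of all probes were called. At an unadjusted p under 0.05, 8 of 33 glutamate probes and 1 of 9 GABA probes were lower than with control ASO and 0 were higher, against 6.72% of all probes lower and 7.16% higher. The wig-1 ASO mice lay entirely below the control ASO mice for 3 glutamate probes and 1 GABA probe, against 4.6% of all probes. Control ASO against PBS gave 0 called receptor probes by either test, and 0% of all probes were called. In that comparison 5 glutamate probes and 0 GABA probes were lower at an unadjusted p under 0.05, against 3.61% of all probes. The 5 include Grm7 probe ILMN_2684189, detected in 3 PBS mice and 0 control ASO mice, and Grik4, detected in 3 PBS mice and 1 control ASO mouse. The control ASO mice lay entirely below the PBS mice for 5 glutamate probes and 0 GABA probes, against 2.5% of all probes. Some of these probes share a gene. By each gene's brightest probe this held for 1 of 17 glutamate genes, against 2.52% of all genes. For wig-1 ASO below control ASO it held for 1 of 17, against 4.56% of all genes. The 3 comparisons share groups of mice, so they are not independent of each other.

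**Figure D1:**
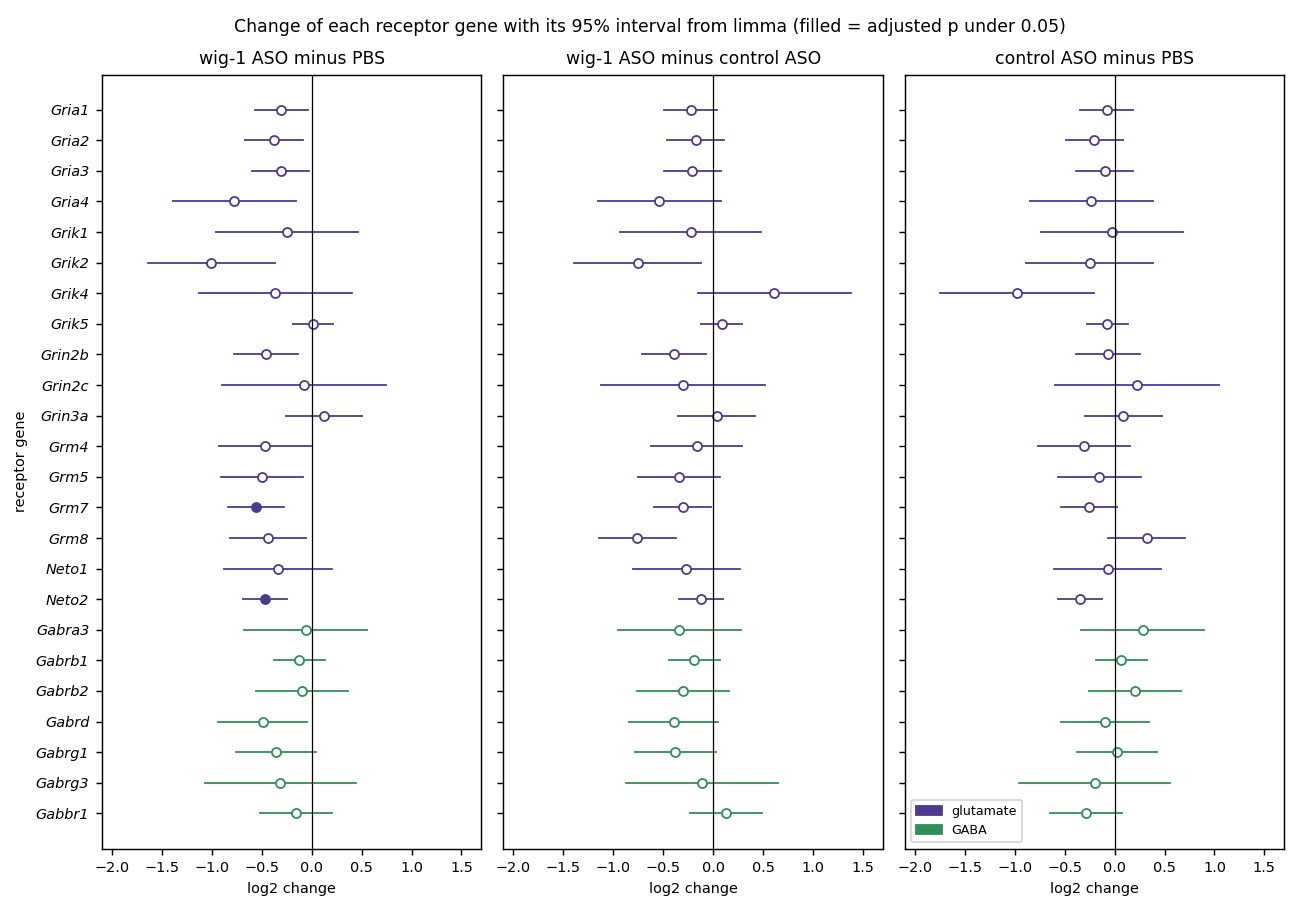
Log2 change of each of the 24 well measured receptor genes (rows, 17 glutamate and 7 GABA) in the 3 comparisons (panels), with points for the difference of group means (n = 4 mice each), lines for 95% intervals from limma, and filled points for an adjusted p under 0.05. Only Grm7 and Neto2 are filled, both in wig-1 ASO against PBS.

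AMPA receptors hold the subunits GluA1 to GluA4, all 4 of which were measured. The median change against PBS was −0.34 over the 4 AMPA genes, −0.31 over 4 kainate genes and −0.48 over 4 metabotropic genes. Gria1, which encodes the AMPA receptor subunit GluA1, has 4 well measured probes, and 2 of them fell. Probe ILMN_1248802 read 9.09, 9.07, 8.91 and 8.75 with PBS, 8.50, 8.25, 8.31 and 8.68 with wig-1 ASO, and 8.74, 8.68, 8.70 and 8.60 with control ASO. Every wig-1 ASO mouse was below every PBS mouse, but so was every control ASO mouse, and the wig-1 ASO and control ASO mice overlapped. Against PBS the signal fell to 69.8%, or by −0.52 in log2 units (SE 0.12, adjusted p = 0.0354), and that with control ASO differed from PBS by −0.27 (SE 0.12, adjusted p = 0.713). In the 12 fits that each left out 1 mouse, this probe was called in 3.

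The second called Gria1 probe, ILMN_2648012, read 8.37, 8.40, 8.42 and 8.36 with PBS, 8.15, 7.66, 7.76 and 7.98 with wig-1 ASO, and 8.34, 8.24, 8.28 and 8.06 with control ASO. The PBS mice lay within a narrow band here, and all wig-1 ASO mice were under it, as were all control ASO mice by a smaller margin. Its change was −0.50 (SE 0.12, adjusted p = 0.0389) against PBS and −0.35 (SE 0.12, adjusted p = 0.199) against control ASO. It was called in 2 of the 12 fits that left out 1 mouse. Another probe, ILMN_2648006, differed from PBS by −0.49 (SE 0.13, adjusted p = 0.0629) with no overlap. Control ASO was also entirely below PBS on it, at −0.33, and wig-1 ASO differed from control ASO by −0.17 with overlap.

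Gria1's brightest probe, ILMN_1221295, shifted less. It read 9.55, 9.61, 9.46 and 9.82 with PBS, 9.61, 9.18, 9.22 and 9.21 with wig-1 ASO, and 9.61, 9.54, 9.58 and 9.40 with control ASO. Replicates 2 to 4 of the wig-1 ASO group were below all PBS mice, while replicate 1 was within the PBS range. The change was −0.30 (SE 0.12, adjusted p = 0.214, exact two-sided permutation p = 0.114), so the probes of this gene differ in whether they passed the test. Without replicate 1 of wig-1 ASO the change was −0.41 (adjusted p = 0.0468).

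Gria2, for the subunit GluA2 that makes AMPA receptors impermeable to calcium, read 10.91, 11.14, 11.41 and 10.89 with PBS, 10.82, 10.69, 10.72 and 10.61 with wig-1 ASO, and 10.84, 11.09, 10.71 and 10.91 with control ASO on its brightest probe (ILMN_2680737). All 4 wig-1 ASO mice were under the PBS range, and replicate 3 of control ASO lay among them. The change against PBS was −0.38 (SE 0.13, adjusted p = 0.153), and the exact two-sided permutation p was 0.029, the smallest that 4 mice against 4 allow. Against control ASO it was −0.17 (SE 0.13, adjusted p = 0.624). Probe ILMN_3122922 was lower with wig-1 ASO than with control ASO without overlap, at −0.46 (SE 0.21, adjusted p = 0.368). It overlapped PBS, at −0.36 (SE 0.21, adjusted p = 0.408). Probe ILMN_1222167 overlapped both, at −0.72 (SE 0.26, adjusted p = 0.165) against PBS and −0.38 (SE 0.26, adjusted p = 0.578) against control ASO.

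Gria3 encodes the subunit GluA3. Its brightest probe, ILMN_1251634, read 9.45, 9.37, 9.55 and 9.58 with PBS, 9.47, 9.24, 9.22 and 8.79 with wig-1 ASO, and 9.45, 9.33, 9.36 and 9.40 with control ASO. Replicate 1 of wig-1 ASO again stood inside the PBS range, with the other 3 under it, and the change of −0.31 (SE 0.13) had an adjusted p of 0.239. A dimmer Gria3 probe, ILMN_1223636, had no overlap with PBS and a change of −0.64 (SE 0.16, adjusted p = 0.0542). Control ASO was entirely below PBS there too, at −0.31 (SE 0.16, adjusted p = 0.747), and overlapped wig-1 ASO.

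Gria4, for GluA4, was near the detection limit. Its probe ILMN_2663423 was detected in 4 PBS mice, 1 wig-1 ASO mouse and 3 control ASO mice. The readings were 2.90, 3.67, 3.38 and 2.98 with PBS, 1.54, 1.53, 2.90 and 1.92 with wig-1 ASO, and 3.29, 2.46, 2.86 and 3.49 with control ASO. Its change of −1.26 (SE 0.32, adjusted p = 0.0573) is thus a difference between a weak signal and mostly undetected ones. Brighter by a little, probe ILMN_1244887 read 2.76, 3.43, 3.87 and 3.37 with PBS, 2.47, 3.05, 2.76 and 2.07 with wig-1 ASO, and 3.60, 3.34, 2.68 and 2.88 with control ASO. Its groups overlapped, with a change of −0.77 (SE 0.28, adjusted p = 0.171).

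**Figure D2:**
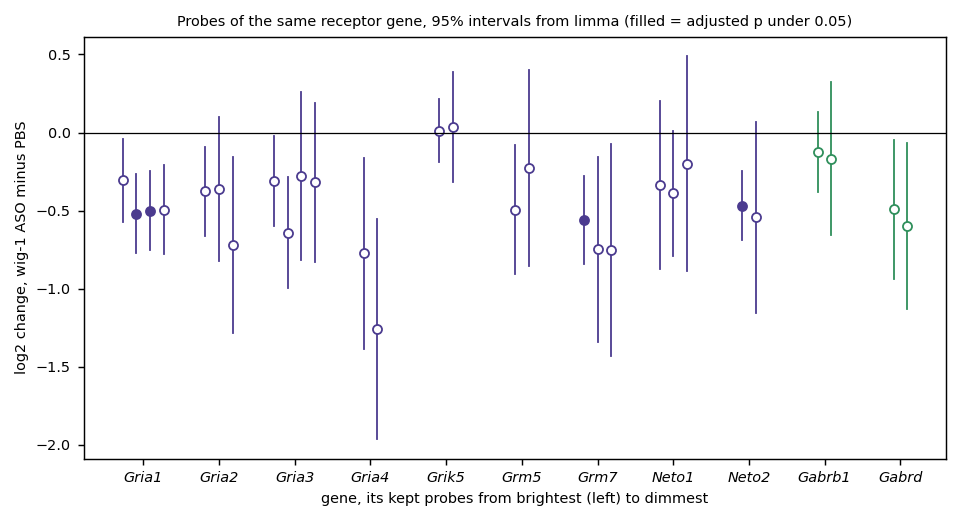
Log2 change in wig-1 ASO against PBS for every well measured probe of the 11 receptor genes with more than 1 such probe, each with its 95% interval from limma (n = 4 mice per group) and filled where the adjusted p was under 0.05. Probes of 1 gene share the sign of their change in all 11 genes, while their size and call differ, as in Gria1 with 2 of 4 probes filled.

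Kainate receptor subunits were mixed. Grik2, for the subunit GluK2, showed a change of about 1 on the log2 scale, the biggest fall in mean of any gene here by its brightest probe, but did not pass the test. It read 6.11, 6.51, 6.82 and 6.55 with PBS, 6.25, 5.51, 5.63 and 4.59 with wig-1 ASO, and 5.96, 6.38, 6.20 and 6.45 with control ASO. Replicates 2 to 4 of wig-1 ASO were under all 8 other mice, and replicate 1 was among them. In linear terms this came to 49.9% of the PBS signal, with a change of −1.0 (95% interval −1.64 to −0.37, adjusted p = 0.0874). Without replicate 1 it was −1.26 and passed the test.

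Grik5, for the partner subunit GluK5, was the counterexample, with readings between 7.13 and 7.26 with PBS, between 7.14 and 7.39 with wig-1 ASO and between 7.05 and 7.27 with control ASO. The 3 groups overlapped, and the change against PBS was 0.01 (95% interval −0.19 to 0.21). A second Grik5 probe gave 0.03 (95% interval −0.32 to 0.39). Grik1 changed by −0.25 (95% interval −0.96 to 0.46) and Grik4 by −0.36 (95% interval −1.13 to 0.40), both with overlap. Grik4, weak and detected in 1 of the 4 control ASO mice, was lower with control ASO than with PBS, with a change of −0.98 (SE 0.35, adjusted p = 0.707), a bigger difference than that with wig-1 ASO.

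The kainate receptor partners Neto1 and Neto2 bind these channels and alter their gating. Neto2 gave the smallest adjusted p of the 42 probes. Its probe ILMN_1245531 read 8.26, 8.30, 8.33 and 8.25 with PBS, 7.83, 7.74, 7.77 and 7.93 with wig-1 ASO, and 7.78, 8.16, 7.83 and 7.98 with control ASO. Both oligonucleotide groups lay entirely below PBS, and they overlapped each other. The change was −0.47 (SE 0.10, adjusted p = 0.0292) for wig-1 ASO against PBS, −0.35 (SE 0.10, adjusted p = 0.665) for control ASO against PBS and −0.12 (SE 0.10, adjusted p = 0.667) for wig-1 ASO against control ASO. Wig-1 ASO left the signal of this probe at 72.3% of PBS, and it was called in 5 of the 12 fits that left out 1 mouse. On a dimmer Neto2 probe, ILMN_1235540, control ASO was instead higher in mean than PBS, by 0.24 (SE 0.28, adjusted p = 0.867). Wig-1 ASO differed there by −0.54 (SE 0.28, adjusted p = 0.339) from PBS. Its difference from control ASO was −0.78 (SE 0.28, adjusted p = 0.232), and all groups overlapped. Neto1 changed by −0.34 (SE 0.24, adjusted p = 0.522) against PBS, with groups that overlapped.

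Metabotropic receptors were all lower in mean, and Grm7 passed the test. Grm7 encodes mGluR7, a presynaptic receptor that restrains transmitter release. Probe ILMN_1247084 read 8.21, 7.96, 8.25 and 8.25 with PBS, 7.95, 7.49, 7.64 and 7.35 with wig-1 ASO, and 7.83, 7.97, 7.91 and 7.94 with control ASO. The wig-1 ASO mice lay below the PBS mice without overlap, though replicate 1 (7.95) all but touched the lowest PBS mouse (7.96), and the control ASO mean of 7.91 lay between the other means, its mice overlapping both groups. The change was −0.56 (SE 0.13, adjusted p = 0.0391), to 67.9% of PBS, and −0.31 (SE 0.13, adjusted p = 0.318) against control ASO. Of the 12 fits that left out 1 mouse, the 1 without wig-1 ASO replicate 1 called it.

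Grm7 has 2 further probes, both dim, with changes of −0.75 against PBS on each (adjusted p = 0.172 and 0.228). Probe ILMN_2872782 was lower with wig-1 ASO than with control ASO without overlap, with a change of −0.84 (SE 0.27, adjusted p = 0.181). Probe ILMN_2684189 was detected in 3 PBS mice, 1 wig-1 ASO mouse and 0 control ASO mice, so it passed the filter mostly through PBS. Its change with wig-1 ASO is thus a difference between a weak signal and mostly undetected ones. Its mean with PBS was at least 1.37-fold that with control ASO (adjusted p = 0.713). For that bound, each control ASO signal was set to the dimmest signal detected on its own array, and the PBS signals were used as read.

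Grm5, for the postsynaptic receptor mGluR5 that couples to calcium release, read 9.12, 9.73, 9.93 and 9.47 with PBS, 9.45, 9.00, 8.84 and 8.99 with wig-1 ASO, and 9.55, 9.44, 9.13 and 9.53 with control ASO. Replicates 2 to 4 of wig-1 ASO were the lowest of the 12 mice. The change was −0.49 (SE 0.19, adjusted p = 0.192). Grm4, for the presynaptic mGluR4, read 7.75, 7.29, 7.12 and 7.56 with PBS, 7.47, 6.47, 6.69 and 7.21 with wig-1 ASO, and 7.11, 7.16, 7.04 and 7.18 with control ASO. Only replicates 2 and 3 of wig-1 ASO were outside the range of the others, and the change of −0.47 (SE 0.21) had an adjusted p of 0.266.

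Grm8, for the presynaptic mGluR8, had its clearer difference against control ASO. It lay between 3.83 and 4.30 with wig-1 ASO, between 4.06 and 4.95 with PBS and between 4.74 and 5.02 with control ASO. The wig-1 ASO mice were below all control ASO mice and overlapped the PBS mice. The change was −0.76 (SE 0.18, adjusted p = 0.0703) against control ASO and −0.44 (SE 0.18, adjusted p = 0.214) against PBS.

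Among the glutamate receptor classes, the 3 NMDA receptor genes had the median change against PBS nearest to 0, at −0.08, which is the value of the dim Grin2c. Against control ASO their median was −0.30, and the kainate genes were nearest to 0, at −0.07. Grin2b, for the glutamate-binding subunit GluN2B, lay between 7.99 and 8.20 with PBS, between 7.84 and 8.28 with control ASO and between 7.46 and 8.05 with wig-1 ASO. Replicate 1 of wig-1 ASO (8.05) was at the PBS level and the other 3 were between 7.46 and 7.51, so that the change was −0.46 (SE 0.15, adjusted p = 0.123). Grin3a, for the subunit GluN3A that lowers calcium flow, changed by 0.12 (95% interval −0.26 to 0.51), and Grin2c by −0.08 (95% interval −0.90 to 0.74).

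**Figure D3:**
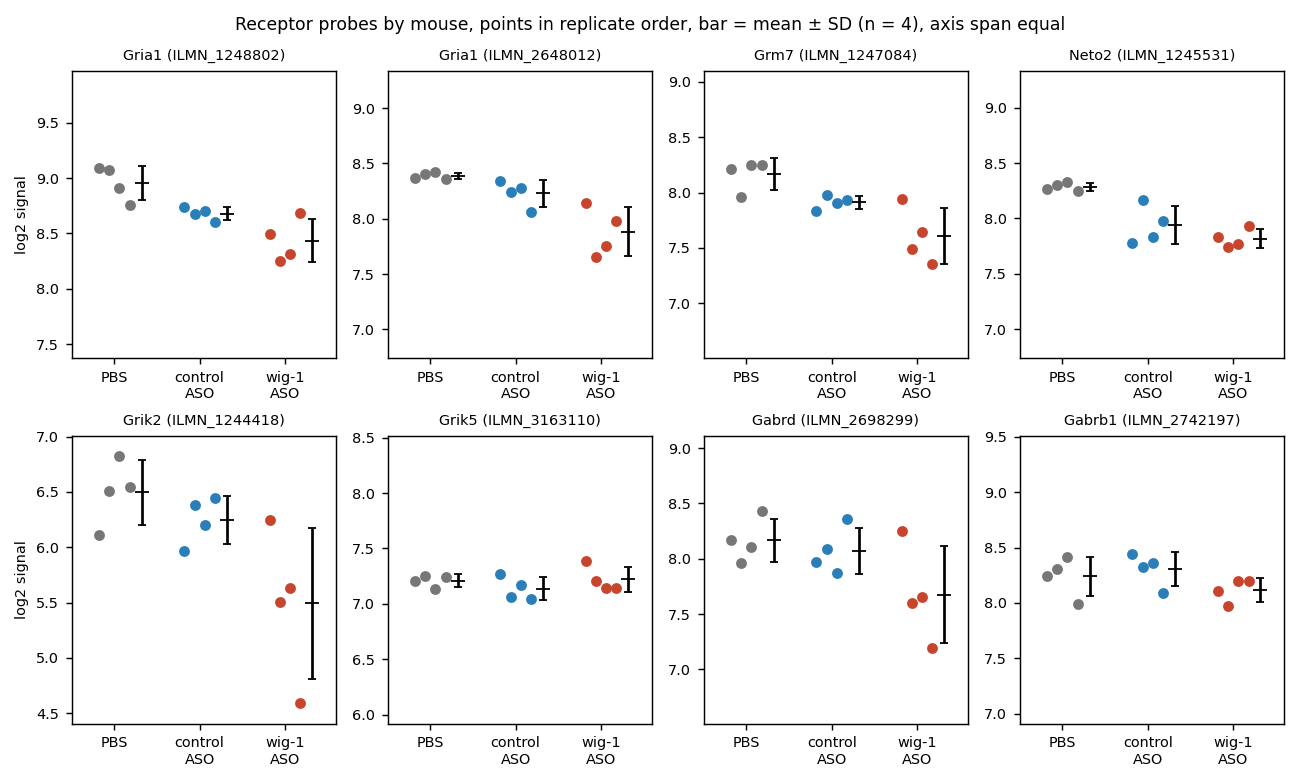
Log2 signal of 8 receptor probes in each mouse (points in replicate order, grey PBS, blue control ASO, red wig-1 ASO), with mean ± SD (n = 4) beside them and an equal axis span in all panels. The first 4 panels hold the called probes, where all wig-1 ASO mice are below all PBS mice, and Grik5 and Gabrb1 show groups that overlap.

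On the GABA side, the 7 measured genes all had means below PBS with wig-1 ASO, by 0.06 to 0.49 on the log2 scale, and all overlapped PBS. Gabrd, for the delta subunit of GABA-A receptors outside synapses, had the lowest mean change. Its probe ILMN_2698299 read 8.17, 7.96, 8.10 and 8.43 with PBS, 8.25, 7.60, 7.66 and 7.19 with wig-1 ASO, and 7.97, 8.08, 7.87 and 8.36 with control ASO. As with several glutamate genes, replicates 2 to 4 of wig-1 ASO were under all other mice and replicate 1 was within the PBS range. The change was −0.49 (SE 0.20, adjusted p = 0.227), and a second probe gave −0.60 (SE 0.24, adjusted p = 0.218). Without replicate 1 of wig-1 ASO the first probe's change was −0.68 (adjusted p = 0.0337).

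Gabrb1, for the beta-1 subunit, read 8.24, 8.31, 8.42 and 7.99 with PBS, 8.11, 7.97, 8.20 and 8.19 with wig-1 ASO, and 8.44, 8.33, 8.36 and 8.09 with control ASO. These groups overlapped, and the change was −0.12 (95% interval −0.38 to 0.13). Its second probe, ILMN_2826167, was lower with wig-1 ASO than with control ASO without overlap, at −0.46 (SE 0.22, adjusted p = 0.396), but overlapped PBS. Gabbr1, for the ligand-binding subunit of the GABA-B receptor, read 6.78, 6.58, 6.50 and 6.32 with PBS, 6.66, 6.18, 6.40 and 6.32 with wig-1 ASO, and 5.83, 6.48, 6.32 and 6.42 with control ASO. Its change was −0.16 (SE 0.16, adjusted p = 0.679) against PBS and 0.13 (SE 0.16, adjusted p = 0.797) against control ASO.

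The gamma subunits contribute to GABA-A receptors at and around synapses. Gabrg1 read 4.74, 4.29, 5.18 and 4.64 with PBS, 4.31, 4.57, 4.45 and 4.11 with wig-1 ASO, and 4.53, 4.90, 4.95 and 4.58 with control ASO, a change against PBS of −0.35 (SE 0.18, adjusted p = 0.343). Gabrg3 read 3.41, 3.91, 5.23 and 3.98 with PBS, 3.74, 3.36, 3.78 and 4.39 with wig-1 ASO, and 4.11, 3.60, 3.75 and 4.25 with control ASO, and its PBS mean was drawn up by replicate 3. The change of −0.31 (SE 0.35, adjusted p = 0.695) was smaller than its SE. Gabra3 and Gabrb2, for an alpha and a beta subunit, changed by −0.06 (95% interval −0.67 to 0.56) and −0.09 (95% interval −0.55 to 0.37).

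Set side by side, the median change over the 17 glutamate genes was −0.38 against PBS, with 15 of 17 below 0, and that over the 7 GABA genes was −0.16, with 7 of 7 below 0. Over all 10031 measured genes the median was −0.01, with 51.9% below 0. The GABA median rests on few genes and mice, and was −0.06 without PBS replicate 3, −0.36 without PBS replicate 4 and −0.24 without wig-1 ASO replicate 1, where the glutamate median stayed between −0.44 and −0.36 in all 12 such fits. Against control ASO the glutamate median was −0.23, with 14 of 17 below 0, and the GABA median was −0.30, with 6 of 7 below 0. These were close to each other under other settings, at −0.19 and −0.20 with no detection filter and at −0.17 and −0.18 with 16 added before log2, and without wig-1 ASO replicate 1 they were −0.34 and −0.30. For control ASO against PBS the medians were −0.10 for glutamate and 0.02 for GABA, and the latter was −0.12 without PBS replicate 2. These are descriptions of the 2 lists, and no test was run on them.

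The same comparison was made within each mouse, as the median over a list's genes of their deviation from the PBS mean. In the wig-1 ASO mice the glutamate median was −0.11, −0.43, −0.51 and −0.40, and the GABA median was −0.13, −0.27, −0.15 and −0.09. The glutamate median was therefore the lower one in replicates 2 to 4 and about equal in replicate 1. Glutamate minus GABA was −0.21 ± 0.17 with wig-1 ASO, −0.12 ± 0.17 with control ASO and 0.00 ± 0.17 with PBS (mean ± SD of 4 mice). The ranges of this difference overlapped between the 3 groups, from −0.37 to 0.02 with wig-1 ASO, from −0.31 to 0.02 with control ASO and from −0.18 to 0.24 with PBS. The difference between the group means, PBS against wig-1 ASO, was of about the size of 1 SD between mice of a group.

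**Figure D4:**
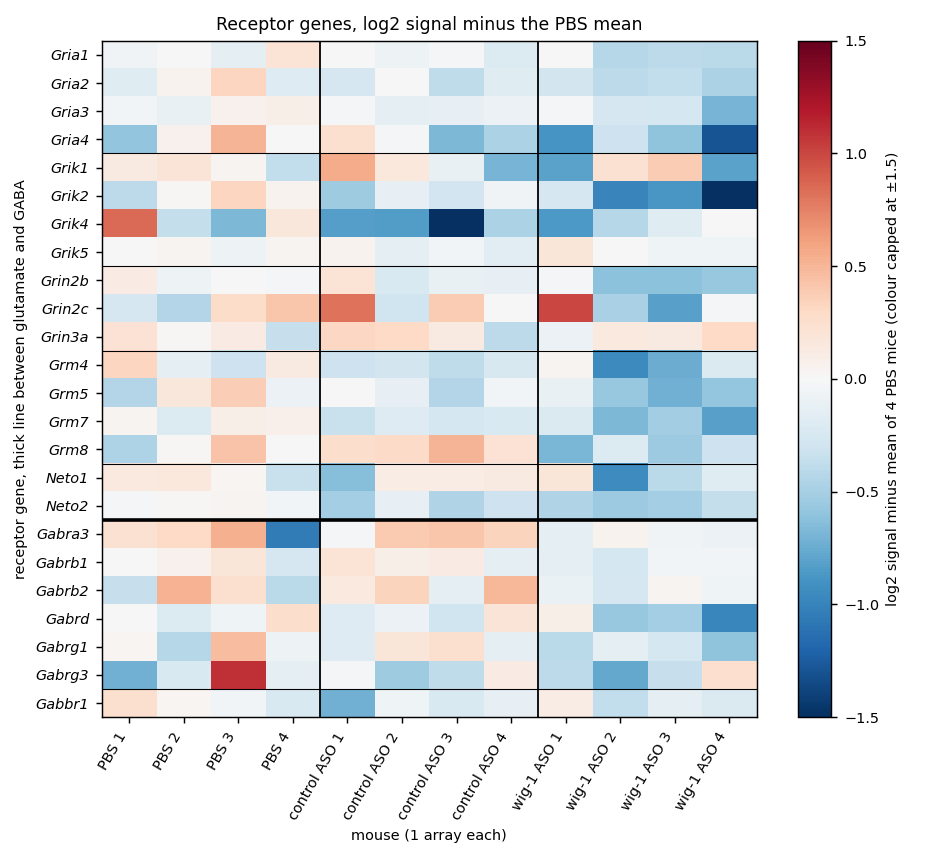
Log2 signal of the 24 receptor genes (rows, brightest probe, grouped by receptor class) in each of the 12 mice (columns), minus the mean of the 4 PBS mice, blue for lower and red for higher. Blue fills most glutamate rows in wig-1 ASO replicates 2 to 4 and is fainter in replicate 1. In replicates 2 to 4 Grik5 stays near the PBS mean and Grin3a is above it, and Grik1 is above it in replicates 2 and 3.

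Genes of the same synapses were read from lists. Of 19 measured scaffold genes of glutamate synapses, 18 were below PBS in mean with wig-1 ASO, with a median of −0.33, and 1 fell, where 98 of all 10031 genes fell. That was Shank3, which links glutamate receptors to the cytoskeleton, at 8.04 ± 0.08 with PBS, 7.49 ± 0.21 with wig-1 ASO and 7.82 ± 0.13 with control ASO (mean ± SD of 4 mice). Its change against PBS was −0.55 (SE 0.12, adjusted p = 0.0292). Lrrtm1, a synaptic adhesion protein, was the 1 scaffold gene called against control ASO, where it was higher by 0.56 (SE 0.10, adjusted p = 0.042), and its change against PBS was 0.20 (SE 0.10, adjusted p = 0.333).

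Auxiliary subunits of glutamate receptors had a median of −0.14 over 19 measured genes, with 0 called against PBS. The TARP Cacng2 (stargazin), which carries AMPA receptors to the membrane, fell against control ASO, where 29 of all 10031 genes fell. Its change was −0.87 (SE 0.17, adjusted p = 0.0473) against control ASO and −0.47 (SE 0.17, adjusted p = 0.181) against PBS. Its means were 5.22 ± 0.24 with PBS, 4.75 ± 0.27 with wig-1 ASO and 5.62 ± 0.25 with control ASO (SD, n = 4 each).

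Glutamate transporters and enzymes, 14 measured, had a median of 0.09 with 0 called. Their smallest p belonged to Slc17a8, a vesicular glutamate transporter, at −1.28 (SE 0.33, adjusted p = 0.0585), then Slc7a11, a cystine-glutamate exchanger, at 0.31 (SE 0.09, adjusted p = 0.0979), and Slc1a4, a neutral amino acid transporter, at 0.37 (SE 0.20, adjusted p = 0.359).

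On the inhibitory side, GABA receptor scaffolds and partners had a median of −0.09 over 14 genes and GABA synthesis and transport genes one of −0.16 over 10 genes, with 0 called in any comparison. Gphn (gephyrin, the anchor of GABA-A receptors) was at −0.24 (SE 0.09, adjusted p = 0.216), Trak1 at −0.33 (SE 0.11, adjusted p = 0.152) and Gabarap at 0.44 (SE 0.15, adjusted p = 0.138). Gad1, which makes GABA, was at −0.37 (SE 0.11, adjusted p = 0.11), Slc32a1, which loads it into vesicles, at −0.34 (SE 0.10, adjusted p = 0.105), and Aldh5a1, which takes part in its breakdown, at −0.31 (SE 0.09, adjusted p = 0.0869). Of 5 glycine receptor genes 2 were measured, Glra2 at −0.23 and Glrb at −0.03.

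Marker genes of cell types were read in the same mice. Markers of medium spiny neurons, 17 of 20 measured, were all below PBS in mean with wig-1 ASO, with a median of −0.58 and 0 called. Their median by mouse was 0.04, −1.03, −0.77 and −0.55 with wig-1 ASO and −0.58, −0.22, −0.50 and −0.10 with control ASO. Their summed signal ran from 17729 to 21804 with PBS, from 11200 to 19737 with wig-1 ASO and from 13532 to 17669 with control ASO, and none of the listed markers was undetected on all arrays. Replicate 1 of wig-1 ASO, in which the glutamate receptor median was nearest to PBS, was also the wig-1 ASO mouse with these markers at the PBS level. The control ASO mice did not share this order. Their glutamate receptor median was −0.01, −0.12, −0.12 and −0.18, nearest to PBS in replicate 1, where these markers were lowest. Pan-neuronal markers, 13 of 17 measured, had a median of −0.05 with 0 called against PBS.

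Microglial markers, 10 of 14 measured, had a median of 1.5 with wig-1 ASO against PBS, and 7 rose, where 284 of all 10031 genes rose. By mouse the median was 0.91, 1.86, 1.51 and 1.65 with wig-1 ASO and between −0.02 and 0.76 with control ASO. Their summed signal ran from 1267 to 1419 with PBS, from 2354 to 4756 with wig-1 ASO and from 1309 to 2168 with control ASO, with Ptprc detected on no array. The astrocyte marker Gfap rose by 1.77 (SE 0.31, adjusted p = 0.0146), the 1 call among 11 measured astrocyte markers. Chat, the marker of cholinergic interneurons, fell, with a change of −0.80 (SE 0.19, adjusted p = 0.0489), the 1 call among 10 measured interneuron markers. Rora, on the list for thalamus and septum, rose by 0.53 (SE 0.12, adjusted p = 0.0413), the 1 call of 14. All 8 measured oligodendrocyte markers were above PBS in mean, with a median of 0.21 and 0 called. Choroid plexus markers, 10 of 11 measured and none undetected on all arrays, differed between mice of every group, with summed signals from 1175 to 10828 with PBS, from 211 to 13434 with wig-1 ASO and from 3356 to 13877 with control ASO. The part of these cell types in the receptor values was not tested.

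**Figure D5:**
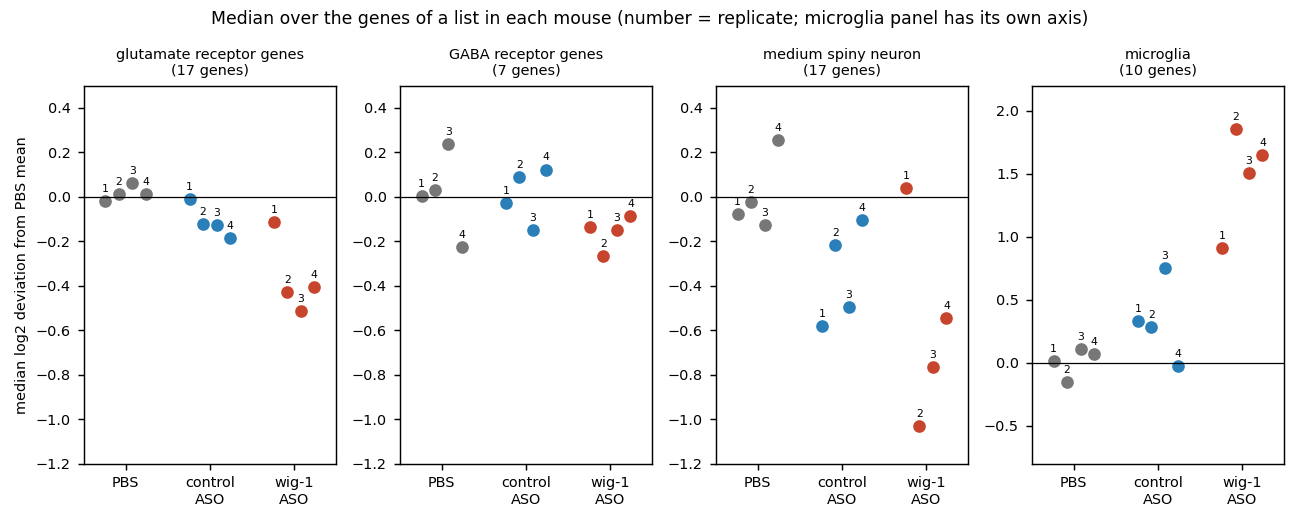
Median log2 deviation from the PBS mean over the genes of a list in each mouse (points, numbered by replicate), for 17 glutamate receptor genes, 7 GABA receptor genes, 17 medium spiny neuron markers and 10 microglial markers, the last on its own axis. Wig-1 ASO replicates 2 to 4 are the lowest of the 12 mice for glutamate receptors. For the neuron markers, replicates 2 and 3 are lowest and replicate 4 (−0.55) lies just above control ASO replicate 1 (−0.58), and the GABA medians of the 3 groups overlap.

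Promoters were read for shared sequence features. RefSeq starts of the build GRCm38.p6 were at hand for 15 of the 24 measured genes. The 250 bases before the start are shown for Grm7 (chr6:110645262-110645511 on the plus strand) and Neto2 (chr8:85700925-85701174 on the minus strand), and, as genes whose means stayed close to PBS, for Grik5 (chr7:25072370-25072619 on the minus strand) and Gabrb1 (chr5:71657671-71657920 on the plus strand). Each is written 5′ to 3′ on the gene's strand, with capitals for GGGCGG, the GC box that binds Sp1-type factors.
Grm7: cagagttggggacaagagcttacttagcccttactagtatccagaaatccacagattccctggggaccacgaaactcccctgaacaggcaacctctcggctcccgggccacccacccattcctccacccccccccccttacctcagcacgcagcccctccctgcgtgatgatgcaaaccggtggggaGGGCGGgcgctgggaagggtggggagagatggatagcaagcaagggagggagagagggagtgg
Neto2: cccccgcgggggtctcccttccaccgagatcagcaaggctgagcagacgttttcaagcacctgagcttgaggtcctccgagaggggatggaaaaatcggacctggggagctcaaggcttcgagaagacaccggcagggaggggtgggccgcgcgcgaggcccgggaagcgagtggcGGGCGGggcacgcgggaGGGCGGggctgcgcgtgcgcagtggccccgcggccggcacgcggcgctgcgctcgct
Grik5: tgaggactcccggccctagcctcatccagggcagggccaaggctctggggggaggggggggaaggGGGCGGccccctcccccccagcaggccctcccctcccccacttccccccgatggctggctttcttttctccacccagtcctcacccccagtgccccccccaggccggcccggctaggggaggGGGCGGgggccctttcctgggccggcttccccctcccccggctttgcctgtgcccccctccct
Gabrb1: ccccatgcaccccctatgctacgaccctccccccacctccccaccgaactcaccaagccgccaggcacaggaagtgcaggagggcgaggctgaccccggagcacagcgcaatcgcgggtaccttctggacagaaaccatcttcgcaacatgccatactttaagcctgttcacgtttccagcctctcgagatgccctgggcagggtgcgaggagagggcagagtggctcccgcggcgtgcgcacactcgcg

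GGGCGG was found on either strand in 9 of the 15 receptor promoters and in 33.0% of 27025 promoters of the same length. Among the 4 sequences shown, it was found in Grm7, Neto2 and Grik5. For Gria1, which also has called probes, no promoter was read here. TGACGTCA, the cAMP response element, was in 0 of the 15 and in 1.60% of all, and CACGTG, the canonical E-box, in 0 of the 15 and in 6.04% of all. TATAAA was in 2 of the 15, Gabra3 (on the strand opposite to the gene) and Gabrb2 (on the gene's strand), and in 13.0% of all. None of the 4 motifs contains another, and a match describes letters only. The median GC content was 64.4% over the 15 promoters and 52% over all.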

How the data were processed

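Striatal RNA of 12 BACHD mice was hybridised to Illumina MouseWG-6 v2 arrays, and the samples were grouped by their labels into PBS, wig-1 ASO and control ASO. The authors deposited for each of 45281 probes on each array an intensity with its detection p-value, and log2 values of the same intensities. They name the Bioconductor packages lumi and siggenes for their analysis. All 12 arrays hold the same sorted intensities, as quantile normalization leaves them, so the deposited intensities were not normalized again. The plan had allowed for raw intensities and neqc, and cyclic loess took its place among the alternatives. The slide and scan batch of each array were not given in the sources used here. The number of arrays limits the precision.

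Log2 intensities were compared in R 4.3.3 by limma 3.58.1, in 1 model of the 3 groups with 9 residual degrees of freedom and no covariate, on the 17188 probes that 4 or more arrays detected at a p-value below 0.01. The fit was tested on simulated data. For single probes, all 70 arrangements of 8 mice gave an exact permutation test, two-sided. Gene symbols came from the platform annotation, where 34885 probes have 1 symbol, 18 have several and 10378 have none, and gene IDs changed 0 of them. Promoters came from RefSeq, build GRCm38.p6. The files name no build, so no probe coordinates are given.

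Genes described mouse by mouse are those with a called probe, the 5 per family of largest change against PBS, the 3 per family of highest mean signal, and Neto2. The members of partner lists named are those called, or the 3 of smallest p. Grik5, Grm8, Grin2b and Grik4 were described after their values were seen. The receptor genes and the lists were chosen with earlier results of these data known. Alternatives were the SAM test, the study's limits of p and fold change, other filters, an offset of 16 before log2, array weights, cyclic loess, the mean over probes, a replicate block, the 2 groups alone and each mouse left out.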

Additional observations from a re-analysis of the deposited data

Results flagged for a closer look

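In 4 of the 126 groups of 4 mice that were examined, 1 mouse stood apart from the other 3 by Dixon's criterion, which sets the gap to the nearest neighbour against the group's range. Chance alone gives about 1 in 20. With wig-1 ASO, replicate 1 was highest for Gria1 (probe ILMN_1221295) at a log2 signal of 9.61, where the next mouse was at 9.22. The same mouse was highest for Grin2b (probe ILMN_2547237) at 8.05, where the next was at 7.51. Among PBS mice, replicate 2 was lowest for Grm7 (probe ILMN_1247084) at 7.96, where the next was at 8.21. Among control ASO mice, replicate 1 was lowest for Neto1 (probe ILMN_2837179) at 5.00, where the next was at 5.75.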

How the results depend on the processing

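In wig-1 ASO against PBS, 4 receptor probes of 577 called probes in all became 2 of 600 with SAM (1 of them among the 4), 0 of 417 at the study's limits, 0 of 120 with the 8 arrays of both groups alone, 0 of 257 with no detection filter, 6 of 653 with detection on all 12 arrays, 7 of 908 with array weights and 7 of 913 with 16 added before log2. They became 0 with a replicate block, which left 233 called probes in all, and 23 in place of 162 against control ASO and 1 in place of 0 for control ASO against PBS, none of them a receptor probe. The replicate numbers mark separate mice and do not pair them (correlations of same-numbered mice between −0.135 and 0.126). Leaving out 1 mouse gave 0 to 10 calls. By mouse left out, the count was 0 without PBS replicates 1, 2 and 3 or wig-1 ASO replicate 2, 1 without PBS replicate 4, wig-1 ASO replicates 3 and 4 or control ASO replicates 1 and 2, 2 without control ASO replicates 3 and 4, and 10 in the absence of wig-1 ASO replicate 1. For wig-1 ASO against control ASO the count of 0 became 1, Grm8, with array weights, with detection on all 12 arrays and with 16 added, and was 0 to 1 with a mouse left out, the 1 being Grin2b without wig-1 ASO replicate 1.

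The GABA median against PBS ranged from −0.362 to −0.0631 with a mouse left out. Against control ASO it was −0.20 with no detection filter and −0.18 with 16 added. For control ASO against PBS, leaving out a mouse moved the GABA median from −0.12 to 0.16 and the glutamate median from −0.178 to −0.0793. With a mouse left out, 3 single-gene changes turned sign. The change of Gabrg3 against PBS ranged from −0.554 to 0.0526 (above 0 without PBS replicate 3). That of Gabbr1 against control ASO ranged from −0.0173 to 0.202 (below 0 without control ASO replicate 1), and that of Gabrg3 from −0.301 to 0.0404 (above 0 without wig-1 ASO replicate 2). The cause was not tested. The other 134 settings of the counts and medians kept direction and side of the threshold, as did 607 of those of single genes. In 56 settings of single genes a call was lost, all on the 4 called probes. The call was kept in 7 settings and lost in 14 for Gria1 probe ILMN_1248802, and in 6 and 15 for Gria1 probe ILMN_2648012. It was kept in 5 and lost in 16 for Grm7, and in 10 and 11 for Neto2. Signals near the detection limit, as for Gria4, limit what can be read from dim probes.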
